A study of Brachypodium distachyon with 7 samples.

Results

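In seedlings of the grass Brachypodium distachyon, 16434 genes had deposited signal for the histone marks H3K4me3, H3K27me3 or both, and 1872 of them had signal for both. These 1872 genes, called dual-mark genes here, were the identifiers that occurred in both the H3K4me3 and the H3K27me3 tables. They made up 15.9% of the 11752 genes listed for H3K4me3 and 28.6% of the 6554 listed for H3K27me3. The remaining 9880 genes were listed for H3K4me3 only and 4682 for H3K27me3 only. All libraries of a mark listed the same genes, so membership did not differ between conditions. Being listed is itself a readout, and the level of each mark is therefore described without a test.

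Both marks were profiled by chromatin immunoprecipitation and sequencing (ChIP-seq) in pooled aerial parts of line ABR1, grown at 24 °C in long days. V0, the group without cold, was harvested 17 days after sowing. V30 had 14 days of growth followed by 30 days of vernalization at 4 °C. V30N had 7 days of growth, the same 30 cold days and a recovery of 7 days in the warm. The effect of cold cannot be told apart from those of age and of the days grown beforehand. For H3K4me3 there were 2 libraries of V0, 1 of V30 and 1 of V30N, whereas each condition had a single H3K27me3 library. Nothing in the labels shows that the V0 libraries are separate plantings. The p-values thus reflect the spread of these libraries alone, possibly a technical one. The marks were measured in separate libraries of whole aerial tissue, so both marks on the same nucleosomes and each mark in different cells cannot be told apart.

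H3K4me3, the trimethylation of lysine 4 of histone H3, is placed near the start of active genes by Trithorax-group methyltransferases. H3K27me3 is written by Polycomb repressive complex PRC2 over the body of silent or weakly expressed genes. In animal stem cells, genes with both marks have been called bivalent and include many developmental regulators. In plants, long cold acts through H3K27me3: in Arabidopsis the flowering repressor FLC gains it, whereas in temperate grasses the flowering promoter VRN1 is known to lose it.

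The deposited values limited what could be read from H3K4me3. In each H3K4me3 library, many genes had 1 identical value, called a shared value here: 22.3 in V0 library 1 (1139 genes), 23.2 in V0 library 2 (74 genes), 22.9 in V30 (1012 genes) and 25.4 in V30N (208 genes). Of the dual-mark genes, 424 (22.6%) had a shared value in at least 1 library, against 20.3% of H3K4me3-only genes, and 1448 had none. The spacing of low values also differed between libraries. In V0 library 1 and V30, 10.97% and 9.81% of values under 20 lay on multiples of 1 coarse step, against 2.46% in V0 library 2 and 2.28% in V30N. Over the 1448 dual-mark genes, as a description across genes, log2 signal had a Pearson's r of 0.919 for the V0 pair and 0.967 for V0 library 2 with V30N. By finer steps within the coarse step, V0 library 1 had 34, V0 library 2 and V30 had 68 and V30N had 79, so the 2 measures group the libraries differently. In H3K27me3, V30 had 34 finer steps and V0 and V30N had 48, while the share of values under 45 on the coarse step was 17.5%, 47.2% and 36.6% in V0, V30 and V30N. With 1 library per condition, such differences and the condition cannot be told apart.

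Dual-mark genes carried much less H3K27me3 than genes with H3K27me3 alone, and slightly less H3K4me3 than genes with H3K4me3 alone. At V0, the median H3K27me3 signal was 77.4 over dual-mark genes and 138 over H3K27me3-only genes, a ratio of 0.561. In V30 the medians were 69.2 and 136, and in V30N 73.8 and 138. The ratio was thus below 1 in each of the 3 libraries, at 0.511 in V30 and 0.534 in V30N. For H3K4me3, the medians of dual-mark and H3K4me3-only genes were 40.4 and 43.5 in V0 library 1, 52.5 and 55.9 in V0 library 2, 42.2 and 44.8 in V30, and 50.2 and 54.1 in V30N. These ratios lay between 0.929 and 0.941 in the 4 libraries, or between 0.943 and 0.953 without genes with shared values. In V0 library 2 the 25th percentile was 37.3 for dual-mark and 41.2 for H3K4me3-only genes, the 75th was 67.4 and 70.6, and the 95th was 95.8 and 93.7. Dual-mark genes were thus lower up to the 75th percentile there and not at the 95th.

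The share of dual-mark genes was lower at higher levels of either mark, with the larger range along H3K27me3. Among H3K27me3 genes ranked by their mean level over the libraries, 44.7% of the lowest 10% carried both marks and 9.91% of the highest 10%. Among H3K4me3 genes the same shares were 21.3% and 14.5%, and 22.0% and 14.3% without shared values. The lowest H3K27me3 values of dual-mark genes were 27.4, 23.4 and 27.9 in V0, V30 and V30N, at the lower end of the tables themselves, which began at 27.3, 23.3 and 27.9. Many dual-mark genes therefore lay close to the lowest H3K27me3 values that the tables hold.

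**Figure D1:**
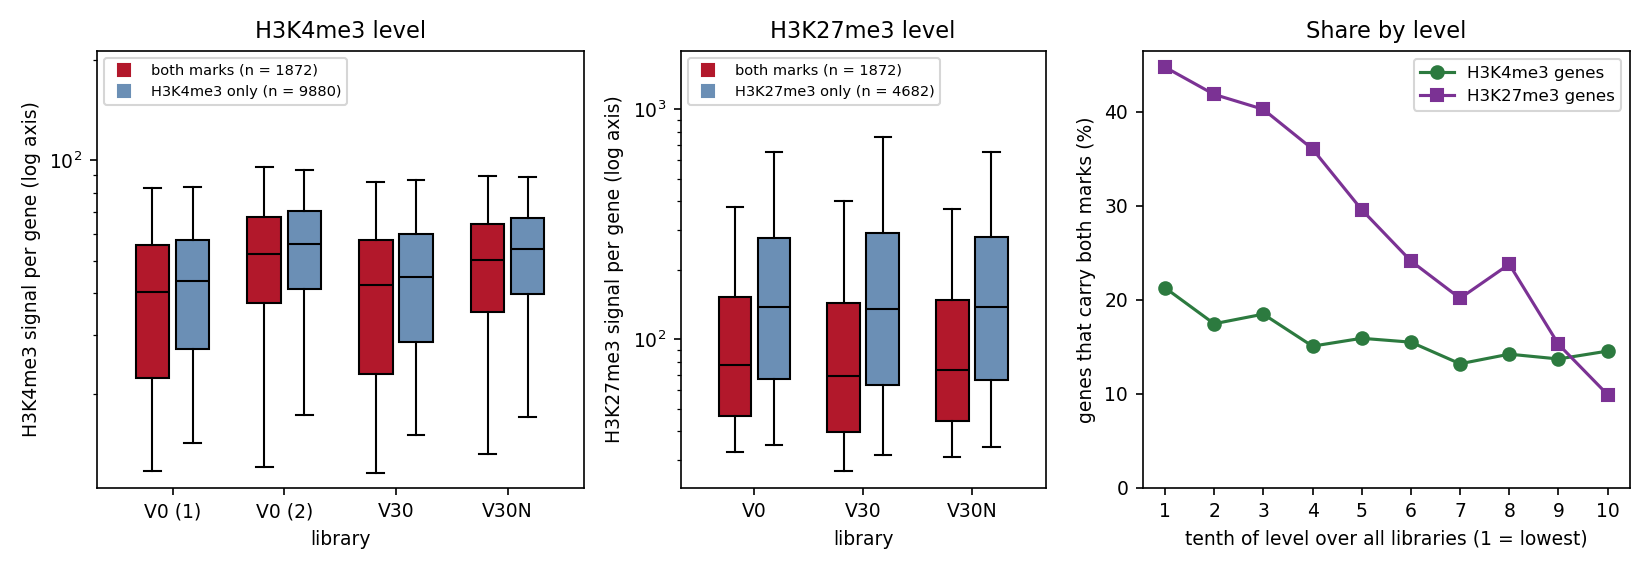
Signal per gene (log axes) in each library for dual-mark genes and for genes with a single mark, with boxes from the 25th to the 75th percentile, medians as lines and whiskers at the 5th and 95th percentiles; the right panel gives the percentage of genes with both marks in 10 equal groups of level. The H3K27me3 boxes of dual-mark genes sit lower in all 3 libraries, and the share of dual-mark genes goes from 44.7% to 9.91% along H3K27me3.

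Within the dual-mark genes, the levels of the marks were nearly unrelated. Spearman's rho between H3K4me3 and H3K27me3 signal across the 1872 genes was -0.13 at V0, -0.16 in V30 and -0.13 in V30N, as a description over genes that share the same libraries. When the genes were split into 4 groups of 468 by H3K27me3 at V0, median H3K4me3 in V0 library 2 was 54.2, 54.1 and 53.3 in the lower groups and 48.1 in the highest. The same medians in V0 library 1 were 42.2, 40.9, 42.2 and 35.8. The lower H3K4me3 thus went with the group whose median H3K27me3 was 251, against 36.9 in the lowest group. At V0, 409 dual-mark genes were in the top 25% of H3K4me3 genes and 550 in the bottom 25%. Of H3K27me3 genes, 251 dual-mark genes were in the top 25% and 674 in the bottom 25%. In the top 25% for both marks there were 39, and 107 were in the bottom 25% for H3K4me3 and the top 25% for H3K27me3. A further 164 had this the other way around, and 170 were in the bottom 25% for both.

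Single genes spanned this range. Bradi1g00410 ranked highest by the lower of its 2 percentiles, above 97.8% of genes for H3K4me3 and 98.1% for H3K27me3. Its H3K4me3 signal was 81.03 and 119 in the V0 libraries, 87.9 in V30 and 103 in V30N. For H3K27me3 the signal was 815, 959 and 779 in V0, V30 and V30N. Both marks were high in every library. Bradi5g18530 was next, with H3K4me3 of 88.2 and 77.7 and H3K27me3 of 575 at V0. The highest H3K27me3 value of the whole table in each condition belonged to a dual-mark gene, Bradi2g32910, chosen here after its values were seen. Its values were 3465, 4504 and 3157 in the order V0, V30, V30N, with H3K4me3 of 57.6 and 47.7 in the V0 libraries. The dual-mark gene with the highest H3K4me3 in all 4 libraries, Bradi5g06130, likewise chosen afterwards, had 274 and 257 in V0, 297 in V30 and 265 in V30N, with H3K27me3 of 190, 163 and 171. The files do not pair identifiers with names, and these genes are given by identifier only.

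**Figure D2:**
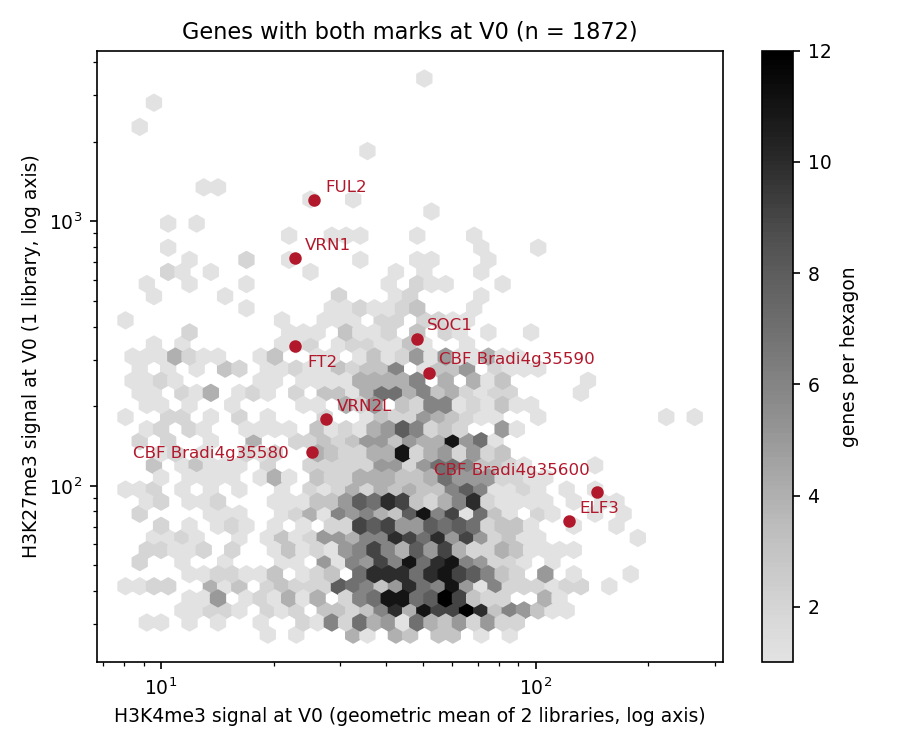
H3K4me3 signal (geometric mean of the 2 V0 libraries) against H3K27me3 signal (1 library) at V0 for all 1872 dual-mark genes, shaded by genes per hexagon on log axes, with the listed flowering, clock and CBF genes as points. Most genes lie at low H3K27me3 across a wide range of H3K4me3; FUL2 and VRN1 lie high in H3K27me3, and ELF3 and Bradi4g35600 high in H3K4me3.

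Genes with a published name were taken from lists of loci. Of 11 flowering loci, 5 carried both marks, 2 H3K4me3 only and 2 H3K27me3 only, and 2 were in neither table. Of 5 circadian clock loci, 1 carried both marks and 2 H3K4me3 only. Of 9 loci of CBF genes, which encode activators of the cold response, 3 carried both marks, 2 H3K4me3 only and 1 H3K27me3 only. Of 6 IRI loci, which encode ice recrystallization inhibition proteins, none carried both marks and 5 carried H3K27me3 only. Of 7 reference loci used to normalize expression assays, 6 carried H3K4me3 only and none carried H3K27me3. The listed genes with both marks were thus 5 of flowering, 1 of the clock and 3 of the cold response.

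They differed in balance. FUL2 (Bradi1g59250) and VRN1 (Bradi1g08340), MADS-box transcription factors of flowering, had H3K27me3 of 1202 and 726 at V0, above 99.7% and 97.1% of genes with that mark. Their H3K4me3 lay above 13.0% and 10.8% of genes, with a shared value in V0 library 1 for both and also in library 2 for VRN1. FT2 (Bradi2g07070), a florigen relative, had 337 for H3K27me3 and the shared H3K4me3 value in both V0 libraries. SOC1 (Bradi1g77020), another MADS-box gene, was in the middle for H3K4me3, with 46.5 and 49.9, and had 360 for H3K27me3. ELF3 (Bradi2g14290), an evening gene of the clock, lay at the other end, with H3K4me3 of 123 in both V0 libraries and H3K27me3 of 73.3. The CBF neighbours Bradi4g35580, Bradi4g35590 and Bradi4g35600 differed among themselves, with balances from -0.95 to 1.66 on the scale defined in the next paragraph. Their H3K4me3 in V0 libraries 1 and 2 was 20.2 and 31.7, 45.04 and 59.8, and 109 and 195, respectively. Their H3K27me3 at V0 was 135, 268 and 94.6.

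The balance of the marks was computed per gene as log2 H3K4me3 minus log2 H3K27me3, with each mark centred on the median of its own table. A value above 0 means that log2 H3K4me3, relative to the median of its table, exceeded log2 H3K27me3 relative to its own. It does not compare ranks, because H3K27me3 was spread more widely. Bradi5g27360, for example, had a balance of -0.04 at V0. It lay above 98.6% of H3K4me3 genes and 78.3% of H3K27me3 genes. The median over the 1872 genes was 0.28 at V0, 0.32 in V30 and 0.28 in V30N, with 59.0%, 60.5% and 59.0% of genes above 0. The spread was wide in each condition, from -1.56 (10th percentile) to 1.39 (90th) at V0, from -1.66 to 1.57 in V30 and from -1.60 to 1.38 in V30N. It came mostly from H3K27me3, with an SD over genes at V0 of 0.92 against 0.62 for H3K4me3. The extremes at V0 were Bradi3g22550 (2.64) and Bradi5g24460 (2.52) on the H3K4me3 side, and Bradi2g06330 (-5.89) and Bradi1g69900 (-5.61) on the H3K27me3 side. Bradi2g06330 had H3K27me3 of 2830, 3681 and 2570 in V0, V30 and V30N, with H3K4me3 between 8.70 and 13.1 in the 4 libraries.

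Most genes kept their side across conditions. The balance was above 0 in all 3 conditions at 973 genes and below 0 in all 3 at 625, while 274 changed side. Of those 274 genes, 230 lay within 0.5 of 0 at V0, where 566 genes lay in all. From V0 to V30, 112 genes went from below to above 0 and 84 the other way, and from V0 to V30N 65 and 66. Across genes, Spearman's rho of the balance was 0.911 between V0 and V30, 0.954 between V0 and V30N and 0.908 between V30 and V30N. Listed genes were among those that changed side in V30. VRN2L (Bradi3g10010), related to the flowering repressor VRN2 of cereals, had a balance of -1.15 at V0, 0.28 in V30 and -0.93 in V30N. The CBF genes Bradi4g35580 and Bradi4g35590 had -0.90 and -0.95 at V0, 0.18 and 0.28 in V30, and -1.33 and -2.11 in V30N. VRN1 stayed below 0, at -3.24, -1.34 and -2.28. VRN1 had shared H3K4me3 values in both V0 libraries, VRN2L in V0 library 1, and Bradi4g35590 in V30N, so part of these values is not a level of the gene's own.

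Differences between conditions were taken as log2(signal + pseudocount), with pseudocounts of 9.41 for H3K4me3 and 27.3 for H3K27me3, which understates the change of low genes. Dual-mark genes were counted where they differed by at least 1.5-fold on that scale. H3K4me3 was compared with limma over all 11752 genes.

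H3K4me3 of dual-mark genes after cold moved as that of H3K4me3-only genes did. The median V30 minus V0 difference was -0.08 for both groups. It was 0.04 for dual-mark genes with each library centred on its median, and 0.03 against V0 library 1 alone but -0.22 against V0 library 2 alone, so no direction can be given. By size, 44 dual-mark genes (2.35%) were higher and 157 (8.39%) lower, against 2.19% and 7.60% of all genes, a share near the background. Most of these had a shared value: without them, 12 were higher and 37 lower. With libraries centred the counts were 78 and 100. Against V0 library 1 alone they were 156 and 105, and against library 2 alone 32 and 315.

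limma called 1 dual-mark gene higher and 6 lower in V30 (adjusted p under 0.05), against 0.0681% and 0.468% of all genes. Of these 7 genes, 6 had a shared value, 5 of them the value 22.9 in V30. The exception was Bradi5g24460, with H3K4me3 of 166 and 145 in V0, 86.3 in V30 and 147 in V30N. Its V30 value was well below the other 3, with a log2 difference of -0.78 (SE 0.20, limma adjusted p = 0.0309). That call ended with libraries centred, without a variance trend, without the lowest 25% of genes and without shared values (limma adjusted p of 0.712, 0.811, 0.110 and 0.474), and held with a smaller pseudocount (limma adjusted p = 0.0279). No call of a dual-mark gene remained with centring or without a trend in the 3 comparisons.

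The genes with the largest H3K4me3 differences, among those with their own values, were picked on these same values. Their size therefore follows from the choice and is only described. Bradi1g76030 had 24.98 and 30.8 in the V0 libraries, 96.7 in V30 and 35.9 in V30N. V30 stood apart from the other 3 libraries, with a log2 difference from V0 of 1.51 (SE 0.44), which missed limma's threshold over all genes (adjusted p = 0.0816, and between 0.0344 and 0.279 over the alternatives). Bradi3g41110 had 28.3 and 30.6 in V0, 77.8 in V30 and 35.2 in V30N, a difference of 1.17 (SE 0.45, limma adjusted p = 0.435). On the lower side, Bradi4g36601 had 86.7 and 91.4 in V0, 37.3 in V30 and 86.9 in V30N, a difference of -1.08 (SE 0.30, limma adjusted p = 0.0602, and between 0.0281 and 0.385 over the alternatives). Bradi5g04070 had 58.8 and 88.0 in V0, 35.0 in V30 and 73.9 in V30N, a difference of -0.88. Its V0 libraries lay far apart, and it did not pass limma's threshold. Among the 9 listed genes, VRN1 and VRN2L had the largest differences, 1.23 (SE 0.46) and 1.15 (SE 0.45), with a shared value in both V0 libraries for VRN1 and in V0 library 1 for VRN2L, and limma called no listed gene over all genes in any comparison.

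After return to warmth, H3K4me3 of dual-mark genes differed little from V0. The median V30N minus V0 difference was 0.08, against 0.09 for H3K4me3-only genes. It was -0.03 with libraries centred, and -0.05 against V0 library 2 alone, the library most like V30N. By size, 38 dual-mark genes (2.03%) were higher and 16 (0.855%) lower, against 2.46% and 0.749% of all genes. Of these 54, all but 3 higher genes and 1 lower gene had a shared value. With libraries centred the counts were 14 and 25. Against V0 library 2 alone they were 8 and 24, and against library 1 alone 246 and 17. limma called 0 dual-mark genes in either direction, against 0% higher and 0.0255% lower of all genes. Its unadjusted p was under 0.05 at 21 dual-mark genes (1.12%), against 1.12% of all genes, the same share. Bradi1g75080 (37.3 and 70.9 in V0, 78.9 in V30N) and Bradi5g05920 (72.5 and 89.99, then 119) had differences of 0.53 and 0.51, the top values among genes without a shared value and with a mean level at or above the lower quartile of dual-mark genes. The 3 genes past 1.5-fold lay under that level. For Bradi1g75080 the V0 libraries differed from each other more than library 2 did from V30N.

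Between V30 and V30N, 212 dual-mark genes (11.3%) were higher in V30N and 44 (2.35%) lower in H3K4me3, against 12.0% and 2.12% of all genes. With libraries centred the balance turned to 86 higher and 114 lower, and without shared values to 73 and 21. limma called 1 dual-mark gene higher and 2 lower, against 0.238% and 0.0511% of all genes, and all 3 had a shared value. The comparison shares its V30 library with that of V30 and V0. Bradi1g76030 (96.7 to 35.9) was lowest in V30N relative to V30 and Bradi4g42997 (29.4 to 71.4) highest, among genes with values of their own.

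H3K27me3 after cold was lower at dual-mark genes more often than at genes with H3K27me3 alone. With 1 library per condition there was no test. By at least 1.5-fold, 64 dual-mark genes (3.42%) had lower H3K27me3 in V30 than in V0 and 7 (0.374%) higher, against 1.83% and 0.610% of all genes. Among H3K27me3-only genes, 56 (1.20%) were lower and 33 (0.705%) higher. The median difference was -0.08 for dual-mark and 0.02 for H3K27me3-only genes. The 64 genes that were lower, chosen on these values, had a median signal of 122 in V0, 58.4 in V30 and 103 in V30N.

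Since differences in V30 depended on level and dual-mark genes were low in H3K27me3, the groups were also set side by side within 4 equal groups of H3K27me3 level. In each of the 4 groups the median V30 minus V0 difference was lower for dual-mark genes. From the lowest to the highest group it was -0.13, -0.11, -0.04 and 0.11 for dual-mark genes, and -0.07, -0.05, 0.0025 and 0.16 for H3K27me3-only genes. The share of genes lower by 1.5-fold was 1.72%, 5.33%, 5.51% and 0.806% for dual-mark genes, and 1.38%, 1.67%, 1.49% and 0.431% for H3K27me3-only genes. The gap was thus mainly in the middle groups, at 30 of 563 and 20 of 363 dual-mark genes. With the trend with level removed over all genes, an alternative chosen after seeing the data, 47 dual-mark genes were lower and 7 higher. That count was not made over other genes, so it does not show whether an excess of lower genes remained. The median gap between dual-mark and H3K27me3-only genes went from -0.10 to -0.04. The spacing of low values differed between the H3K27me3 libraries, and its part in these counts was not tested.

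The lowest values relative to V0 were at Bradi5g27360, which went from 268 in V0 to 89.5 in V30 and 178 in V30N, a V30 minus V0 difference of -1.34. Its H3K4me3 hardly varied, with 104 and 108 in V0, 113 in V30 and 105 in V30N. Its locus number follows those of the IRI loci Bradi5g27310 to Bradi5g27350, which carried H3K27me3 only. Bradi3g49350 went from 163 to 54.7 and 112. On the higher side, the top value was at Bradi4g37850, which went from 33.1 to 148 and 34.2 (V30 minus V0 difference 1.53). It is given after its values were seen, since the rule for named genes left out genes with a shared H3K4me3 value, which does not bear on H3K27me3. Next, Bradi4g09470 went from 156 to 307 and 170, and Bradi3g51540 from 37.3 to 89.6 and 56.3. V30 was the extreme library at all 5 of these genes. Listed genes were found on both sides: H3K27me3 at VRN1 went from 726 to 474, at Bradi4g35590 from 268 to 152 and at Bradi4g35600 from 94.6 to 52.9, whereas at SOC1 it went from 360 to 539.

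In V30N, 10 dual-mark genes (0.534%) had lower H3K27me3 than in V0 and 3 (0.160%) higher, against 0.244% and 0.107% of all genes. Median centring left 6 lower and 3 higher dual-mark genes, a count not made over all genes. This comparison shares its V0 library with that of V30. The median difference was -0.03 for dual-mark and 0.0036 for H3K27me3-only genes. Within the 4 groups of level it was -0.03, -0.04, -0.03 and -0.01 for dual-mark genes, against -0.01, -0.01, 0.01 and 0.02, so the gap was small in every group. Bradi2g20150 had 147 in V0, 96.9 in V30 and 75.4 in V30N, and Bradi1g16000 had 133, 79.3 and 73.5. At both, V30 and V30N lay below V0. Bradi1g01377 had 75.3, 111 and 134, and Bradi4g43220 had 50.6, 64.0 and 89.9, both above V0 in V30 and V30N. VRN1 had 460 and FT2 209 in V30N, against 726 and 337 in V0.

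From V30 to V30N, 43 dual-mark genes (2.30%) were higher in H3K27me3 and 17 (0.908%) lower, against 1.16% and 0.946% of all genes. The same V30 library served for both comparisons, so this is not separate evidence of a return. Bradi3g54350 went from 157 in V0 to 58.8 in V30 and 152 in V30N, and Bradi2g16610 from 96.4 to 34.0 and 97.2. At these genes V0 and V30N were close to each other. Bradi1g52187 went the other way, from 314 to 425 and 241, as did Bradi4g37850, from 148 in V30 to 34.2 in V30N.

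**Figure D3:**
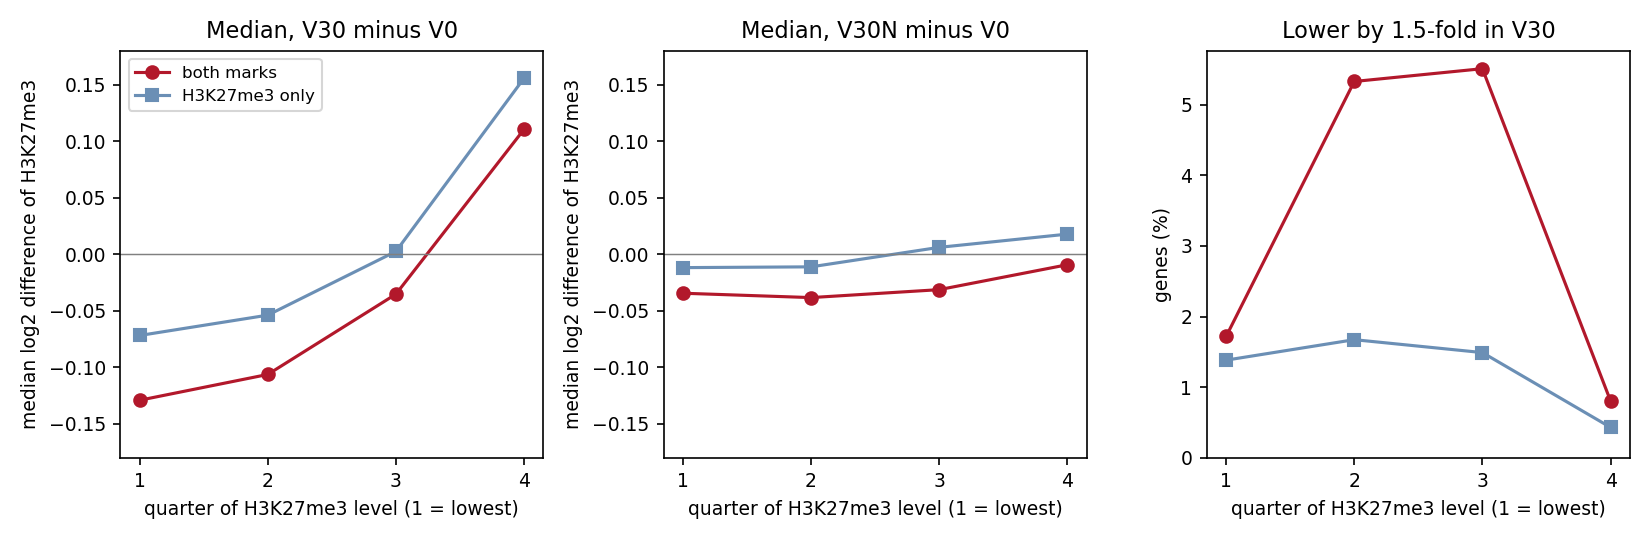
Median log2 difference of H3K27me3 from V0 in V30 (left) and V30N (middle), and the percentage of genes lower by at least 1.5-fold in V30 (right), in 4 equal groups of H3K27me3 level, for dual-mark and H3K27me3-only genes. The dual-mark line lies below in all groups of the left and middle panels, and on the right it reaches 5.33% and 5.51% in the middle groups.

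Taken over all dual-mark genes, differences in one mark had almost no rank correlation with differences in the other. Across dual-mark genes, Spearman's rho of the H3K4me3 with the H3K27me3 difference was -0.04 (V30 minus V0), 0.04 (V30N minus V0) and -0.03 (V30N minus V30). It was -0.03, 0.06 and -0.03 over the 1448 genes without shared values. The marks were measured in separate libraries, and the labels do not say whether these came from the same pooled tissue. At the 64 genes with lower H3K27me3 in V30, the median H3K4me3 difference was 0.01, against -0.08 over all dual-mark genes, and 34 of 64 had a difference above 0, against 741 of 1872. Against V0 library 1 and library 2 alone, the median over the 64 genes was 0.14 and -0.16, against 0.03 and -0.22 over all. In turn, the 12 genes without shared values that were higher in H3K4me3 in V30 had a median H3K27me3 difference of -0.13, and 9 of them were below 0. The 37 genes lower in H3K4me3 had -0.09, and 22 of them were below 0, while 1205 of all 1872 were below 0.

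Few genes passed 1.5-fold in both marks. For V30 against V0 there were 11, of which 6 had higher H3K4me3 and lower H3K27me3, 4 were lower in both and 1 had lower H3K4me3 and higher H3K27me3. For V30N against V0 there were 0. For V30N against V30, 6 were higher in both, 1 had higher H3K4me3 and lower H3K27me3, and 3 had the reverse. That comparison uses the same V30 library. Among the 64 genes with lower H3K27me3 in V30, 6 were higher and 4 lower in H3K4me3, against 44 and 157 of all 1872. Of the 6 genes with higher H3K4me3 and lower H3K27me3 in V30, 5 had a shared V0 value, VRN1 among them. Bradi1g76030 had values of its own. H3K27me3 there went from 245 in V0 to 125 in V30 and 196 in V30N, beside H3K4me3 of 24.98 and 30.8, 96.7 and 35.9. Both marks stood apart in V30, in opposite directions. Bradi4g36601 was lower in both marks in V30, with H3K27me3 of 173 in V0, 95.002 in V30 and 178 in V30N, beside the H3K4me3 values given above. V0 and V30N were close to each other for both marks.

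**Figure D4:**
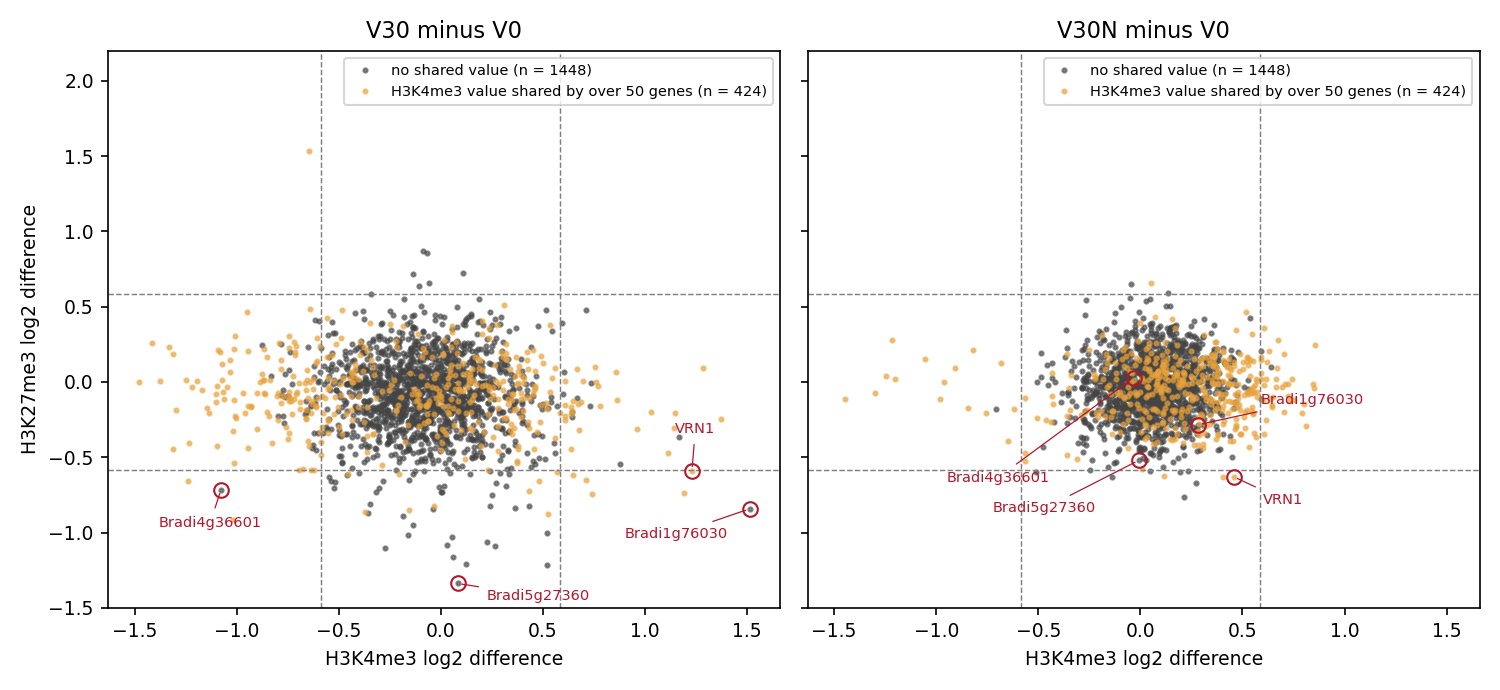
H3K4me3 against H3K27me3 log2 differences of the 1872 dual-mark genes for V30 minus V0 (left) and V30N minus V0 (right), with dashed lines at 1.5-fold and genes with a shared H3K4me3 value in orange. Points form a cloud without slope, rho -0.04 and 0.04, and most points far out along H3K4me3 have a shared value.

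Dual-mark genes were found on all 5 chromosomes in similar shares. Chromosome and order were read from the identifier, in which the locus number counts genes along the chromosome and gives no base position. There were 564 dual-mark genes on chromosome 1, 406 on chromosome 2, 418 on chromosome 3, 296 on chromosome 4 and 188 on chromosome 5. Their share of H3K4me3 genes ranged from 15.1% on chromosome 2 to 17.6% on chromosome 5. Their share of H3K27me3 genes ranged from 24.9% on chromosome 4 to 31.9% on chromosome 5. Chromosome 4 had the highest median H3K27me3 of dual-mark genes at V0, 82.9, and the other 4 lay between 74.4 and 78.9. The median V30 minus V0 difference of H3K27me3 was between -0.08 and -0.09 on chromosomes 1 to 4 and -0.03 on chromosome 5.

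Along the chromosomes, dual-mark genes were more frequent at the ends. Each chromosome was cut into 10 equal intervals of locus number. Over all chromosomes, the share of H3K4me3 genes that carried both marks was 18.8% in interval 1 and 19.8% in interval 10, against 11.1% in interval 5. Interval 3 was as high as the ends, at 20.1%. In the 2 end intervals together it was 19.3%, against 15.0% elsewhere. Of H3K27me3 genes the shares were 31.6% and 27.6%, so part of the pattern was one of H3K27me3 genes as a whole. The end intervals had the higher share of H3K4me3 genes on chromosomes 1 to 4, by 18.2% against 15.2%, 18.9% against 14.1%, 20.1% against 14.1% and 23.1% against 15.5%. On chromosome 5 it was the other way around, with 15.7% at the ends and 18.1% elsewhere. The lowest interval was interval 5 on chromosomes 2 and 3, at 5.65% and 7.81%.

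In gene order, dual-mark genes had neighbours with either mark, in shares closer to those of H3K27me3-only genes than of H3K4me3-only genes. A neighbour was counted where the next listed gene had a locus number at most 10 away, which 1651 dual-mark genes had. Of these, 54.8% were next to a gene with H3K27me3 only, 51.5% next to a gene with H3K4me3 only and 25.4% next to another dual-mark gene. Among H3K4me3-only genes the same shares were 23.9%, 80.3% and 11.6%, and among H3K27me3-only genes 59.6%, 43.7% and 23.9%. Dual-mark genes thus had neighbours with H3K27me3 about as often as H3K27me3-only genes did, 73.5% against 75.4%, whereas 33.9% of H3K4me3-only genes had one.

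H3K27me3 of dual-mark genes went with that of their surroundings. Where neighbours on both sides were listed, median H3K27me3 at V0 was 62.2 with H3K27me3 at neither neighbour (116 genes), 81.5 with it at 1 (412 genes) and 107 with it at both (257 genes). In V30 the medians were 51.9, 74.5 and 104, and in V30N 58.0, 81.1 and 109. The order was the same in all 3 libraries. H3K4me3 went the other way, with 54.4, 53.5 and 47.9 in V0 library 2 and 43.3, 41.0 and 36.7 in V0 library 1. It did so in H3K4me3-only genes too, with 58.3, 55.4 and 51.3 in V0 library 2. H3K27me3-only genes had the same order of H3K27me3 at V0, with medians of 122, 129 and 218, so it was not particular to dual-mark genes. With H3K27me3 at both neighbours, their 218 compares with 107 for dual-mark genes.

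**Figure D5:**
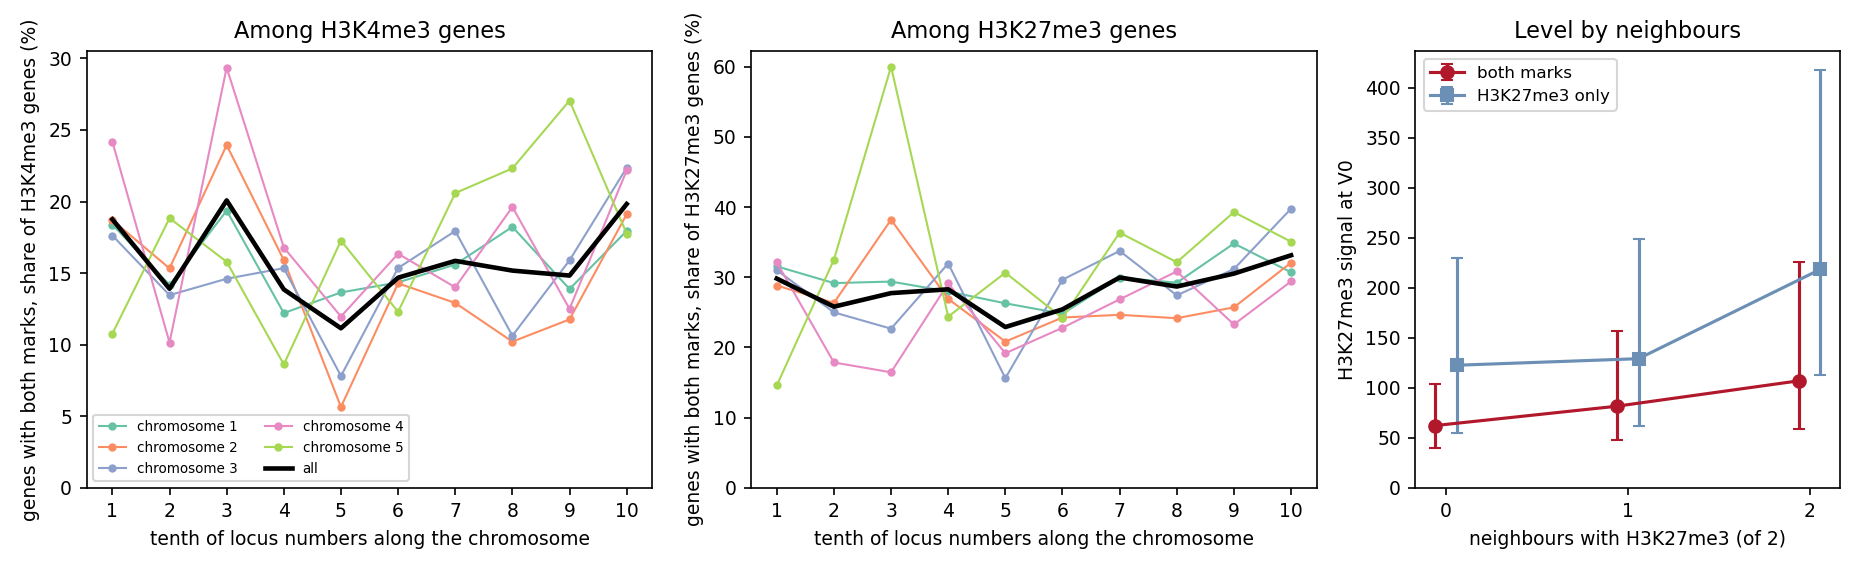
Percentage of H3K4me3 genes (left) and of H3K27me3 genes (middle) that carry both marks in 10 equal intervals of locus number, per chromosome and over all, and H3K27me3 signal at V0 by the number of neighbours with H3K27me3 (right; medians, with bars from the 25th to the 75th percentile). The black line is lowest in interval 5 of the left panel, at 11.1%; the peak on chromosome 5 in the middle panel, 60.0%, rests on 9 dual-mark and 6 H3K27me3-only genes.

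Dual-mark genes were less frequent inside runs of H3K27me3 genes than at run ends. In runs of at least 3 neighbouring genes with H3K27me3, 30.2% of the 1280 genes at run ends carried both marks, against 22.1% of the 1162 genes inside. The share at run ends was near the 28.6% over all H3K27me3 genes. The share of dual-mark genes was 29.2% in single genes and in runs of 3, 30.7% in runs of 2, and 19.1% in runs of 6 or more. Of the dual-mark genes, 1453 had no dual-mark neighbour, including those with no listed neighbour at all. The rest were in 176 pairs, 21 runs of 3 and 1 run of 4. Dual-mark genes made up 11.4% of all listed genes, and 25.4% of those with a listed neighbour were next to another. The run of 4 was Bradi1g59232, Bradi1g59240, FUL2 (Bradi1g59250) and Bradi1g59260 on chromosome 1, singled out after the runs were counted. Their H3K27me3 at V0 was 133, 295, 1202 and 176, peaking at FUL2, while H3K4me3 in V0 library 2 was 59.1, 7.85, 29.6 and 68.6.

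Neighbouring dual-mark genes resembled each other in H3K27me3 and not in H3K4me3. Over the 221 neighbouring pairs, Spearman's rho of level was 0.546 for H3K27me3 and 0.03 for H3K4me3. For the V30 minus V0 difference it was 0.532 and 0.04, and for V30N minus V0 0.366 and 0.10. These pairs overlap in runs and share libraries, and at most 4 pairs in a library had identical values. Changes of H3K27me3 at adjacent dual-mark genes are therefore not independent, and the 64 genes lower in V30 include neighbours. The pair Bradi4g35590 and Bradi4g35600 is an example, with 268 and 94.6 in V0, 152 and 52.9 in V30 and 314 and 103 in V30N.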

How the data were processed

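For each gene and library the authors deposited a single signal value, under a header abbreviation that is not explained. Per the submitters' processing notes, reads were aligned with Bowtie2 2.1.0. How genes were selected, the build, the annotation, any input correction and the normalization are not given in the sources used here. Read depth is therefore unknown, and no interval of counting error is given. None of the 16434 identifiers matched the reference gene table (31335 genes), so names come from published assignments of listed loci.

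Dual-mark genes, the gene lists and the tests were chosen with earlier results of these data known. Values were log2(signal + 1st percentile of the mark), with the deposited scaling kept and the V0 libraries of H3K4me3 averaged after the log. H3K4me3 was tested with limma 3.58.1 (R 4.3.3; eBayes with a variance trend, Benjamini-Hochberg over 11752 genes) on 4 libraries. The spread of the single V30 and V30N libraries was taken to equal that within V0. The prior degrees of freedom were infinite, so each SE came from the variance trend with level and not from the gene's own V0 spread. With centring they were 8.25, and without a trend 16.8, the 2 settings in which no call of a dual-mark gene remained. On simulated data for V30 against V0 with 11752 genes and an SD of 0.197, 78% of 100 dual-mark genes given a log2 change of 1, and 100% of 100 given a change of 2, were recovered, with 7 false calls. Shared values and the offset between the V0 libraries were not simulated, and the SD came from genes without shared values. In the data, the median SE of the V30 minus V0 difference was 0.385 over dual-mark genes. An SE of a difference between 1 library and the mean of 2 exceeds the SD of a library even at equal spread, so the 2 values are unlike measures. With that allowed for, the spread was still wider than simulated. The recovered shares thus overstate what the reported fit could detect.

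Named genes were all listed loci with both marks. To these were added, per mark and comparison, the top 2 genes by size of difference, higher and lower, that had no shared value in H3K4me3 or H3K27me3 and a mean level at or above the lower quartile of dual-mark genes. The 2 genes highest in both marks and the 2 at each extreme of balance completed the set. Genes sharing a value with over 50 others in a library count as having a shared value. Calculations used Python 3.11.15, numpy 2.4.6 and pandas 2.3.3.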

Additional observations from a re-analysis of the deposited data

How the results depend on the processing

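The depth behind the signal is unknown, H3K27me3 has no replicate, and every count at 1.5-fold depended on scale. The counts as first reported were therefore read against the same count over all genes. Counts under the other settings are given for dual-mark genes only, without a share over all genes, and show only how far the count moved. Counts of dual-mark genes are given as higher and lower, for V30 against V0, V30N against V0 and V30N against V30 in that order. For H3K4me3, median centring gave 78 and 100, 14 and 25, and 86 and 114. A pseudocount 10 times smaller gave 82 and 233, 107 and 27, and 349 and 68. Leaving out genes with shared values gave 12 and 37, 3 and 1, and 73 and 21, and a 2-fold threshold 10 and 37, 0 and 6, and 45 and 10. Leaving out 1 V0 library gave 32 to 156 higher and 105 to 315 lower in V30, and 8 to 246 higher and 17 to 24 lower in V30N. For H3K27me3, the smaller pseudocount gave 15 and 183, 21 and 56, and 136 and 30, and 2-fold gave 1 and 11, 0 and 0, and 2 and 1. Centring, and likewise removing the trend with level (chosen after seeing the data), gave 6 lower in V30N. The median H3K4me3 difference of dual-mark genes turned to 0.0407, -0.0322 and -0.0531 with centring. Leaving out 1 V0 library gave -0.217 to 0.0282 in V30 and -0.0456 to 0.202 in V30N. Relative to H3K4me3-only genes, it was 0.0056 in V30 (-0.0047 to 0.0041 without 1 V0 library), -0.0133 in V30N (-0.0044 to -0.0043 without 1 V0 library, -0.0055 without shared values) and -0.0089 for V30N against V30 (-0.0197 without shared values). The H3K4me3 level gap at V0 of -0.0882 was -0.0869 to -0.0777 without 1 V0 library and -0.0639 without shared values. limma's calls of 1 and 6 in V30 and 1 and 2 for V30N against V30 all went to 0 with centring or without a trend. Without shared values 1 and 0 were called in V30 and 0 and 0 for V30N against V30, and without the lowest 25% of genes 2 were higher in the latter. limma was not fitted without a V0 library, since no residual degree of freedom remains. With locus numbers at most 30 apart, 28.5% of dual-mark genes had a dual-mark neighbour. The causes were not tested. No paired analysis was possible because the groups compared share fewer than 2 replicate numbers.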
